A study of Mus musculus with 6 samples.

Results

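Aquaporins are membrane channels that let water, and in some members glycerol, cross cell membranes. They were studied here as a family of 10 genes (Aqp1 to Aqp9 and Aqp11) in kidneys of db/db mice, a model of type 2 diabetes, and of db/m littermates without diabetes. The members were chosen by name, each had 1 probe set of its own, and all 10 were among the 22180 genes measured. The 6 mice were males on the C57BL/KsJ background that were 10 weeks old at the start, were housed for 12 weeks and were killed at 22 weeks of age, with 3 mice per genotype and 1 Affymetrix array per mouse. The db/db mice carry a point mutation of the leptin receptor in every cell and become hyperphagic, obese and diabetic, so these traits cannot be told apart in the comparison. The sample labels call the tissue kidney, whereas the methods name renal cortex.

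In the kidney, Aqp1 carries water across the proximal tubule and the thin descending limb. In principal cells of the collecting duct, vasopressin acts through cyclic AMP to bring Aqp2 to the apical membrane, and water leaves through Aqp3 and Aqp4 on the basolateral side. Aqp6 lies in vesicles of the acid-secreting intercalated cells, Aqp7 in the brush border of the straight proximal tubule, and Aqp11 in the endoplasmic reticulum of proximal tubule cells. Aqp8 and Aqp9 are better known from other organs, Aqp9 from the liver, and Aqp5 from glands and lung.

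Signals were given on the log2 scale, where a difference of 1 is a 2-fold change. Probe sets differ in how strongly they respond, so each gene was compared between mice and not with other genes. As a guide to dim signals, the 1105 olfactory receptor genes on the array had a 95th percentile between 3.27 and 3.47 per array. The signals of 9 aquaporins lay above this range in all 6 mice, and those of Aqp9, at 2.30 to 2.79, lay below it. Markers of the proximal tubule were bright, as the kidney label would have it, with a mean over 9 genes of 11.2 to 11.3 on each array. Single arrays stood apart in markers of other cells. The mean over 6 neutrophil markers was 5.45 in db/db replicate 3 and 2.70 to 2.94 in the other mice, and the mean over 5 adipocyte markers was 4.50 in db/m replicate 2 and 3.08 to 3.22 in the other mice.

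No aquaporin passed the test across all genes (limma, Benjamini-Hochberg adjusted p under 0.05), under which 0.482% of all genes were called. At an unadjusted p under 0.05 limma gave 2 of the 10, Aqp6 higher and Aqp4 lower in db/db mice, where 10.6% of all genes met this level. Aqp6 was also the only member past the thresholds the methods set, a change of 1.5-fold or more at an unadjusted p under 0.05, which 1.83% of all genes met. In 2 of 10 members the groups did not overlap, where 16.8% of all genes had such groups. They were Aqp6, higher in all db/db mice like 9.17% of all genes, and Aqp9, lower in all db/db mice like 7.62%. The log2 fold changes were positive in 4 members and negative in 6, from -0.50 to 0.60, with a median size of 0.17 against 0.11 over all genes. The 3 arrays per group limit the precision of every value, and in whole tissue fewer cells of a type and less RNA per cell cannot be told apart.

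**Figure D1:**
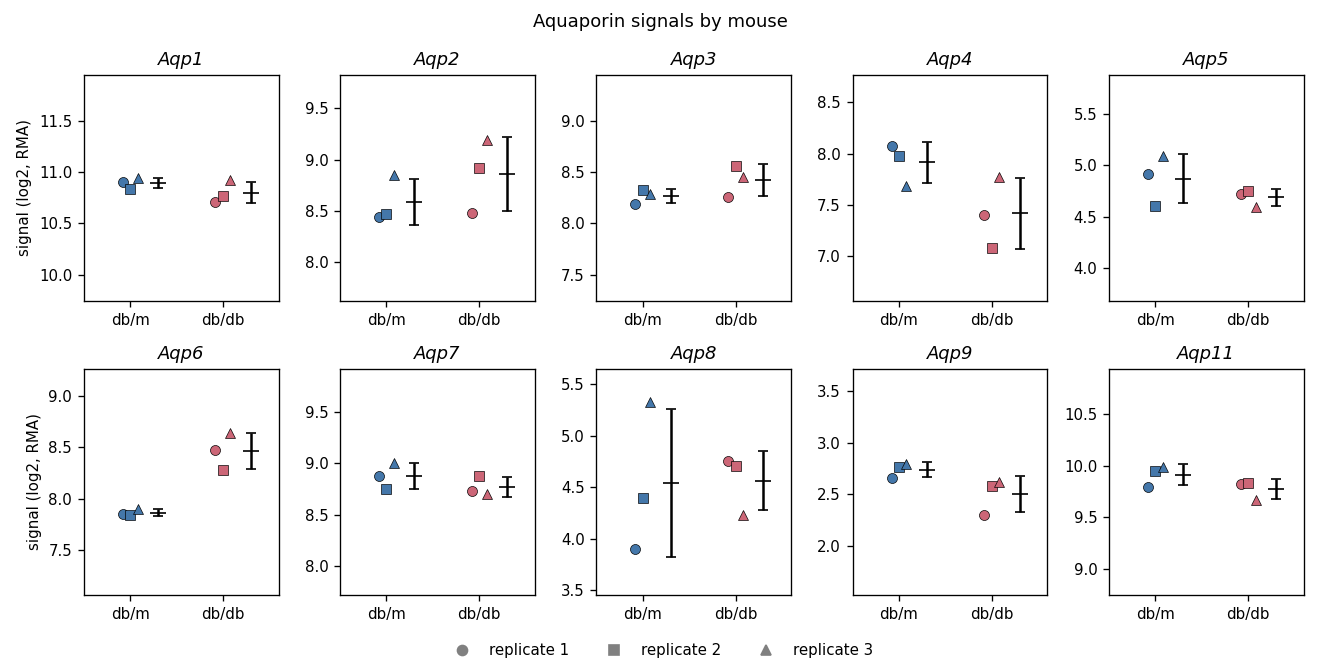
The log2 RMA signal of each aquaporin is plotted for 3 db/m mice (blue) and 3 db/db mice (red), with the replicate number as the symbol and the mean and SD beside the points. Every panel spans the same height on the log2 scale. The groups do not overlap in Aqp6, with 7.84 to 7.90 in db/m mice and 8.29 to 8.64 in db/db mice. They also do not overlap in the dim Aqp9, which is lower in db/db mice. Over all genes 16.8% had such groups.

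Aqp6, the channel of intercalated cell vesicles that in rat also conducts anions, showed the greatest difference of the family over all 6 mice, although that of Aqp4 was greater when db/db replicate 3 was left out (0.51 for Aqp6 and -0.67 for Aqp4). Signals of 7.85, 7.84 and 7.90 were measured in db/m mice and of 8.47, 8.29 and 8.64 in db/db mice. The db/m mice lay close together, and every db/db mouse lay above them. The means were 7.87 ± 0.032 (SD, n = 3) and 8.46 ± 0.18 (SD, n = 3). This is a log2 fold change of 0.60 (limma, standard error, SE, of 0.12 and 95% interval 0.34 to 0.86), or 1.51-fold, with an adjusted p of 0.0809. An exact permutation test of this value gave p = 0.1, the smallest that 3 mice against 3 allow (two-sided). With trended and robust variances limma gave the same difference an adjusted p of 0.0355, while over all alternatives the adjusted p ran from 0.0355 to 0.361. An adjusted p under 0.05 was thus reached in 1 of 14 alternatives. Without db/db replicate 3, the mouse with the high neutrophil markers, the log2 fold change was 0.51 (limma, adjusted p = 0.216), which is under 1.5-fold.

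Several markers of the intercalated cell were also higher on average in db/db mice, although 0 of 11 were called. The mean signal over the 11 markers was 7.28 to 7.48 in db/m mice and 7.55 to 7.64 in db/db mice. These means did not overlap between the groups. The same held for the means of the thick limb, distal convoluted tubule, urothelium, vasopressin and tonicity lists described below. Of the 11 markers 8 had a positive and 3 a negative difference, and their median log2 fold change was 0.20, against 0.005 over all genes. Rhcg, an ammonia transporter, had a log2 fold change of 0.40 (limma, SE 0.11, adjusted p = 0.197). Atp6v1g3, a subunit of the proton pump, had one of 0.44 (limma, SE 0.12, adjusted p = 0.197). In both genes every db/db mouse lay above the db/m mice, as in 3 of the 11 markers and 9.17% of all genes. Foxi1, the transcription factor that directs intercalated cell fate, named after its values were seen, had a log2 fold change of -0.10, with 7.63, 7.77 and 7.85 in db/m mice and 7.82, 7.71 and 7.42 in db/db mice.

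The marker mean differed by 0.19 between the groups, against 0.60 for Aqp6. Relative to the mean of the intercalated markers on the same array, a scale chosen after the values were seen, Aqp6 differed by 0.41 between the groups. On this scale the values were 0.57, 0.36 and 0.48 in db/m mice and 0.91, 0.64 and 1.08 in db/db mice, and the groups again did not overlap. The part of the intercalated cell markers in the Aqp6 result was not tested.

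In the RefSeq annotation Aqp6 follows Aqp2 and Aqp5 on chromosome 15, with no other protein-coding gene between them. Aqp2 had a log2 fold change of 0.27 and Aqp5 one of -0.18, and in both the groups overlapped, unlike in Aqp6. Whether these differences are unequal was not tested. Racgap1, the next protein-coding gene after Aqp6 and a regulator of cell division, had signals of 3.79, 3.64 and 3.70 in db/m mice and 4.26, 4.11 and 4.26 in db/db mice. Every db/db mouse lay above the db/m mice, like in 9.17% of all genes, and the log2 fold change was 0.50 (limma, SE 0.10, adjusted p = 0.0976). Faim2, the gene on the other side of Aqp2 and an inhibitor of Fas-driven cell death, had a log2 fold change of -0.21 (limma, adjusted p = 0.636). RefSeq also places a long noncoding RNA gene, Gm34765, across parts of Aqp2, Aqp5 and Aqp6, and no probe set is named for it. Whether its transcripts reach the probe sets of the aquaporins is not given in the sources used here.

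The 250 bases before the annotated start of each of the 3 neighbours are shown because the genes lie side by side and Aqp6 is 1 of them (RefSeq, GRCm38.p6, plus strand). Capitals mark matches on either strand to TGACG, the core of the cyclic AMP response element through which vasopressin is known to act on Aqp2, or to the site AGATAA of the factors Gata2 and Gata3. TGGAAA, the core of the tonicity element, and TGTTTA, a core of forkhead factors such as Foxi1, were searched too.
Aqp2, chr15:99578806-99579055: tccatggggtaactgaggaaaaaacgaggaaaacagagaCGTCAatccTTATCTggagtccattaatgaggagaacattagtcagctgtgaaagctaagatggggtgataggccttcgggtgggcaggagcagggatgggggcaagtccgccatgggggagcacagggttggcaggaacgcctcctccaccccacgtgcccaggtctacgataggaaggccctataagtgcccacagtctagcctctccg
Aqp5, chr15:99590778-99591027: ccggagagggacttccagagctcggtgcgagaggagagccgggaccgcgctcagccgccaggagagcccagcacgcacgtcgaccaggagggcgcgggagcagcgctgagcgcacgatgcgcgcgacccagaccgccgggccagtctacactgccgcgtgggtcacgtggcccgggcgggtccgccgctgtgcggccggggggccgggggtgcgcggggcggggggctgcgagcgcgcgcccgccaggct
Aqp6, chr15:99600950-99601199: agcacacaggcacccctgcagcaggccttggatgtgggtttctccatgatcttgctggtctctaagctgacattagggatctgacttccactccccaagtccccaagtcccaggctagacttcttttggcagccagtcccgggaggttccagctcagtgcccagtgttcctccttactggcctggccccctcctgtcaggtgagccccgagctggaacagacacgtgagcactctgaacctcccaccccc

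The Aqp2 window held 1 match to TGACG, which begins 211 bases before the start, and 1 match to AGATAA, which begins 202 bases before it, both on the minus strand. The windows of Aqp5 and Aqp6 held 0 matches to any of the 4 motifs, and the window of Aqp2 held none to TGGAAA or TGTTTA. Over 32851 promoter windows of the same length, 17.8% held TGACG, 9.99% AGATAA, 18.6% TGGAAA and 12.0% TGTTTA. The windows also differed in base composition. G and C made up 78.4% of the Aqp5 window, with 38 CpG sites, 55.6% of the Aqp2 window, with 8 CpG sites, and 59.6% of the Aqp6 window, with 3 CpG sites, where the median over all windows was 52.4% and 6 CpG sites.

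Among the channels of the principal cell, Aqp4 was lower on average in db/db mice, whereas Aqp2 and Aqp3 had positive differences within the spread between mice. Aqp4 had signals of 8.08, 7.98 and 7.69 in db/m mice and of 7.41, 7.08 and 7.77 in db/db mice. The db/db replicate 3 lay above db/m replicate 3, so the groups overlapped. The means were 7.91 ± 0.20 (SD, n = 3) and 7.42 ± 0.34 (SD, n = 3), and the log2 fold change was -0.50 (limma, SE 0.18, 95% interval -0.90 to -0.10, adjusted p = 0.350). It was -0.67 when db/db replicate 3 was left out (limma, adjusted p = 0.222) and -0.33 when db/db replicate 2 was (limma, adjusted p = 0.602). RefSeq lists a long noncoding RNA gene, A830021F12Rik, that overlaps Aqp4.

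Aqp2, the vasopressin-regulated channel, had signals of 8.44, 8.47 and 8.85 in db/m mice and 8.48, 8.92 and 9.19 in db/db mice. The db/m replicate 3 and db/db replicates 2 and 3 were high, and db/db replicate 1 lay among the db/m mice. On the log2 scale the groups differed by 0.27 (limma, SE 0.19, 95% interval -0.15 to 0.70, adjusted p = 0.651). It depended on single mice, at 0.11 when db/db replicate 3 was left out and 0.47 when db/db replicate 1 was (limma, adjusted p = 0.910 and 0.472).

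Aqp3, which also passes glycerol, had signals of 8.19, 8.32 and 8.29 in db/m mice and 8.26, 8.56 and 8.46 in db/db mice. The groups overlapped through db/db replicate 1. This gave a log2 fold change of 0.16 (limma, SE 0.11, adjusted p = 0.680), with a 95% interval from -0.10 to 0.41. It was 0.087 when db/db replicate 2 was left out and 0.24 when db/db replicate 1 was.

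The 7 principal cell markers had a mean signal of 6.98 to 7.21 in db/m mice and 7.19 to 7.27 in db/db mice. Among them Elf5, named after its values were seen, was dim. Its signals were 3.36 to 3.49 in db/m mice and 3.41 to 3.58 in db/db mice. The olfactory receptor guide to dim signals was 3.27 to 3.47 per array. Of the 7, 6 had a positive difference and 0 were called, and the median log2 fold change was 0.19. Scnn1g, a subunit of the epithelial sodium channel, had signals of 8.77, 8.79 and 8.96 in db/m mice and 9.02, 9.03 and 9.07 in db/db mice. Every db/db mouse lay above the db/m mice in Scnn1g, as in 1 of the 7 markers and 9.17% of all genes. Hsd11b2, which protects the mineralocorticoid receptor from glucocorticoids, had a log2 fold change of 0.19 (limma, adjusted p = 0.631). Aqp4 differed in the opposite direction from the mean of these markers. Relative to their mean on the same array, a scale chosen after the values were seen, Aqp4 differed by -0.66, Aqp2 by 0.11 and Aqp3 by -0.0072. The Aqp4 values on this scale were 1.099, 0.94 and 0.48 in db/m mice and 0.15, -0.11 and 0.50 in db/db mice, so the groups still overlapped. Signals of whole tissue do not show which cells gave the Aqp4 RNA, and Aqp4 was not set against the markers of other segments. The part of the markers in these differences was not tested.

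**Figure D2:**
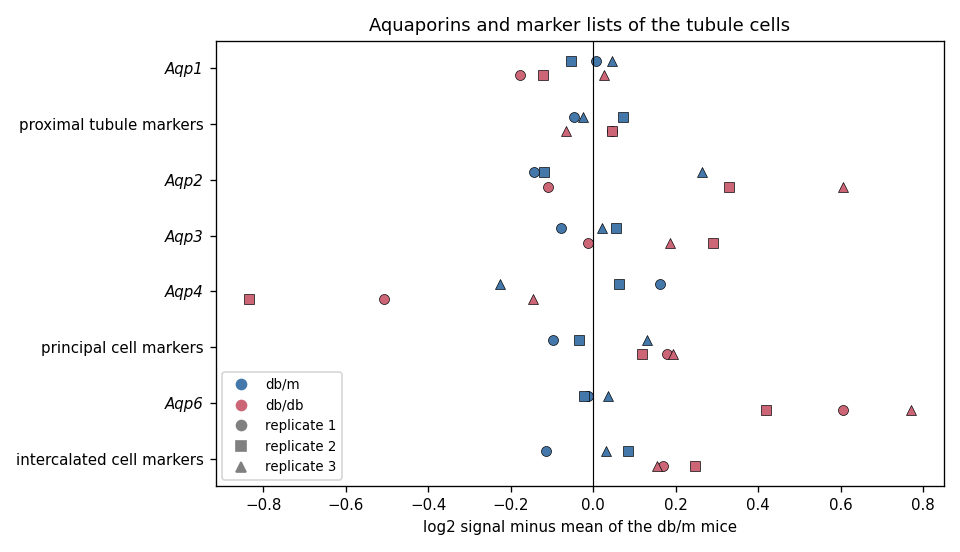
The log2 signal minus the mean of the db/m mice is plotted for aquaporins and for the mean of the marker list of their cell, with 1 symbol per mouse (blue db/m, red db/db). Aqp6 lies farther to the right in db/db mice than the intercalated cell markers, and Aqp4 lies to the left while the principal cell markers lie slightly to the right.

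**Figure D3:**
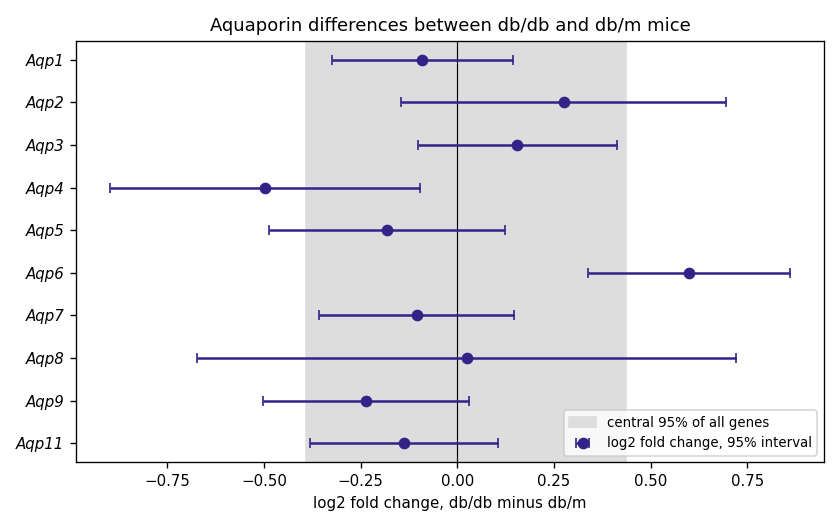
Each point is the log2 fold change of an aquaporin (db/db minus db/m), with its 95% interval from limma, and the grey band holds the central 95% of all genes, from -0.39 to 0.44. The intervals of Aqp6 and Aqp4 exclude 0 before adjustment, and the points of these genes lie outside the band.

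Aqp1, Aqp7 and Aqp11, the channels of the proximal tubule, had differences whose 95% intervals include 0. Aqp1 had signals of 10.90, 10.84 and 10.94 in db/m mice and 10.71, 10.77 and 10.92 in db/db mice. The groups overlapped through db/db replicate 3, and the log2 fold change was -0.091 (limma, SE 0.10, adjusted p = 0.802). The 95% interval of this difference ran from -0.33 to 0.14, and the log2 fold change was -0.15 when db/db replicate 3 was left out and -0.047 when db/db replicate 1 was. Aqp1 is also made in the thin descending limb, endothelium and red cells. The mean over the 5 thin limb markers was 4.02 to 4.83 in db/m mice and 4.43 to 5.21 in db/db mice, and the mean over the 7 endothelial markers was 7.80 to 7.87 and 7.81 to 7.90. Of the 10 red cell markers only Epb42 has a probe set of its own, at 2.67 to 2.99 in db/m mice and 2.56 to 2.91 in db/db mice, within the range of the olfactory receptors.

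Aqp7, an aquaglyceroporin of the brush border and of fat cells, had signals of 8.87, 8.74 and 8.997 in db/m mice and 8.72, 8.87 and 8.70 in db/db mice. The groups overlapped, and the log2 fold change was -0.11 (limma, SE 0.11, 95% interval -0.36 to 0.15, adjusted p = 0.788). With db/m replicate 2 left out it was -0.17, and with db/m replicate 3 left out -0.042. In db/m replicate 2, the mouse with the highest adipocyte markers, Aqp7 was the lowest of its group. The part of fat cells in the Aqp7 signal was not tested. Aqp11, whose loss leads to polycystic kidneys in mice, had signals of 9.80, 9.95 and 9.99 in db/m mice and 9.82, 9.83 and 9.67 in db/db mice. Its groups overlapped as well, with a log2 fold change of -0.14 (limma, SE 0.11, 95% interval -0.38 to 0.11, adjusted p = 0.700), and -0.083 without db/db replicate 3. All 9 proximal tubule markers were measured and 0 were called, and their mean signal was 11.19 to 11.31 in db/m mice and 11.17 to 11.28 in db/db mice. Of the 9, 5 had a positive and 4 a negative difference. Slc34a1, the phosphate transporter of this segment, and Miox, an enzyme of inositol breakdown, had log2 fold changes of 0.0002 and 0.049. Those of Slc5a2 and Slc22a6, named after their values were seen, were 0.26 and -0.28 (limma, adjusted p = 0.403 and 0.416).

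The genes that handle glycerol or underlie cystic kidney disease were likewise without a call. Of the 9 listed glycerol genes 8 were measured, of which 5 had a positive and 3 a negative difference, at a median log2 fold change of 0.067. In Gpd1, which links glycerol phosphate to glycolysis, every db/db mouse lay above the db/m mice, like in 9.17% of all genes. Its log2 fold change was 0.16 (limma, adjusted p = 0.637). Dgat2, which makes triglyceride, had one of 0.089 (limma, adjusted p = 0.817). Of 8 listed cystic kidney genes 6 were measured, with log2 fold changes from -0.075 to 0.17. Ganab, a glucosidase of the endoplasmic reticulum, had a log2 fold change of -0.057, and Bicc1, an RNA-binding protein, had one of 0.087.

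The remaining members, Aqp5, Aqp8 and Aqp9, are best known outside the kidney. Aqp5 had signals of 4.92, 4.61 and 5.08 in db/m mice and 4.72, 4.75 and 4.59 in db/db mice, with a log2 fold change of -0.18 (limma, SE 0.14, adjusted p = 0.684). Leaving out db/m replicate 2 gave -0.31, and leaving out db/m replicate 3 gave -0.074. Aqp8, an intracellular channel that also passes ammonia, had signals of 3.90, 4.39 and 5.33 in db/m mice and 4.76, 4.70 and 4.23 in db/db mice. The db/m mice spanned the whole range of the db/db mice, and the SD was 0.72 in db/m mice and 0.29 in db/db mice. The log2 fold change was 0.024 (limma, SE 0.31, adjusted p = 0.986), and it moved from -0.29 without db/m replicate 1 to 0.42 without db/m replicate 3.

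Aqp9, an aquaglyceroporin of liver and leukocytes, had signals of 2.66, 2.77 and 2.79 in db/m mice and 2.30, 2.58 and 2.62 in db/db mice. Every db/db mouse lay below the db/m mice, and the log2 fold change was -0.24 (limma, SE 0.12, adjusted p = 0.528). Leaving out db/db replicate 1 gave -0.14. RefSeq lists a long noncoding RNA gene, Gm32714, that overlaps Aqp9. Both group means lay under the 95th percentile of the olfactory receptor means, which was 3.36 in db/m and 3.23 in db/db mice. In db/db replicate 3, where the neutrophil markers were high, Aqp9 was 2.62, close to the 2.58 of db/db replicate 2. The part of neutrophils in this dim signal was not tested. The other water channel genes of the array were Mip, the lens channel, with a log2 fold change of -0.14 (limma, adjusted p = 0.700), and Aqp12, known from the pancreas, with one of 0.075 (limma, adjusted p = 0.868). In both the groups overlapped.

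**Figure D4:**
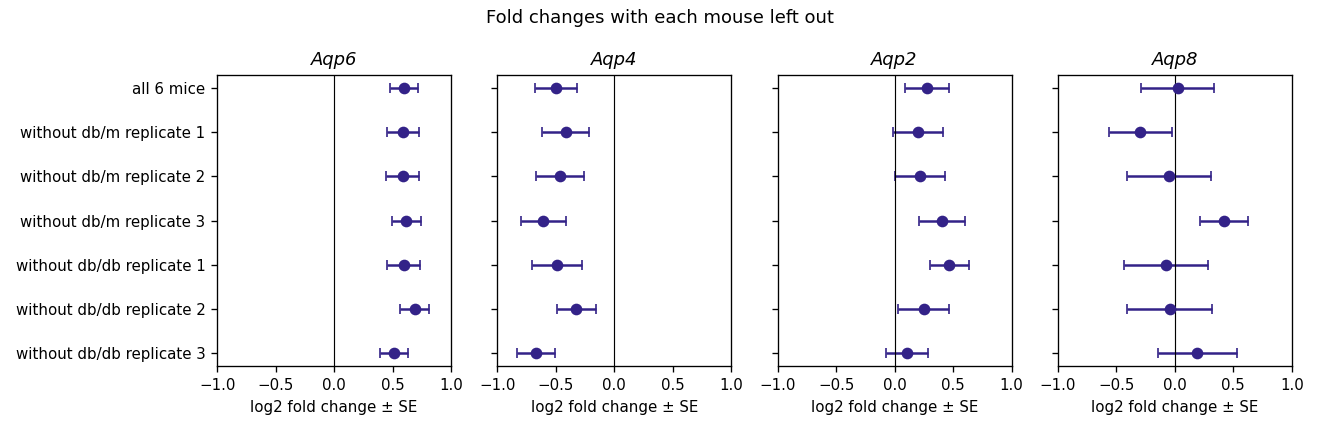
The log2 fold change (db/db minus db/m) with its standard error is plotted for 4 aquaporins with all 6 mice and with each mouse left out. Aqp6 stays between 0.51 and 0.69, Aqp4 between -0.67 and -0.33 and Aqp2 between 0.11 and 0.47, while Aqp8 changes sign.

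The vasopressin and cyclic AMP genes that govern Aqp2 were mostly higher on average in db/db mice, and 0 were called. Of the 15 listed genes 14 were measured, of which 11 were higher and 3 lower on average in db/db mice, at a median log2 fold change of 0.22. At an unadjusted p under 0.05 limma gave 3, all higher (Ptger3, Prkar2a and Akap7, named after their values were seen), where 5.92% of all genes were higher at this level. Avpr2, the vasopressin receptor of principal cells, named for its role, had signals of 6.64, 6.59 and 6.87 in db/m mice and 7.03, 6.74 and 7.004 in db/db mice. The groups overlapped, and the log2 fold change was 0.22 (limma, SE 0.13, adjusted p = 0.575). Ptger3, a prostaglandin receptor that opposes vasopressin, had signals of 7.19, 6.89 and 6.60 in db/m mice and 7.72, 7.43 and 8.002 in db/db mice. Its db/db signals all lay above those of db/m mice, as in 5 of the 14 genes and 9.17% of all genes. The log2 fold change of Ptger3 was 0.82 (limma, SE 0.18, adjusted p = 0.119).

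Prkaca and Adcy6, among the genes of this list with the highest signal, encode a catalytic subunit of protein kinase A and an adenylyl cyclase. Their log2 fold changes were -0.057 and 0.11 (limma, adjusted p = 0.925 and 0.763). The 9 listed transcription factors of Aqp2 had a median log2 fold change of 0.12, with Jun at 0.46 (limma, adjusted p = 0.322) and Nfat5, the tonicity factor, at 0.15 (limma, adjusted p = 0.708). The 17 genes of Aqp2 trafficking had a median of 0.048 and a range of -0.14 to 0.31. Rab7 and Hspa8, a late endosome GTPase and a chaperone, had log2 fold changes of 0.029 and 0.10 (limma, adjusted p = 0.944 and 0.779).

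Genes of the response to tonicity and of urea transport were mostly higher on average in db/db mice, though 0 of 9 measured were called. The difference was positive in 8 and negative in 1, at a median log2 fold change of 0.54, and in 5 genes every db/db mouse lay above the db/m mice, where 9.17% of all genes did so. At an unadjusted p under 0.05 limma gave 4, all higher (Slc6a12, Slc14a1, Hspa1b and Sgk1), where 5.92% of all genes were higher at this level. Slc6a12, the betaine transporter that tonicity induces, had signals of 4.74, 4.88 and 3.99 in db/m mice and 5.36, 5.51 and 6.45 in db/db mice. Its log2 fold change was 1.24 (limma, SE 0.30, adjusted p = 0.152). Slc14a1, a urea transporter, had a log2 fold change of 0.79 (limma, SE 0.22, adjusted p = 0.218). Sgk1, a kinase induced by mineralocorticoids and by tonicity, had one of 0.72 (limma, SE 0.19, adjusted p = 0.190). Slc6a6, the taurine transporter, had one of 0.012 (limma, adjusted p = 0.980). Slc6a12, Slc14a1, Hspa1b and Hspa1a were named after their values were seen, and Hspa1b and Hspa1a are near-identical heat shock genes whose probe sets may share signal.

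The same mice stood at the ends in several of these genes. Slc14a2, the urea transporter of the inner medulla and thin limb, had its lowest signal in db/m replicate 3, at 4.56, and its highest in db/db replicate 3, at 6.73, while db/db replicate 2 at 5.16 lay among the db/m mice. The mean over the 5 thin limb markers, a list that holds Slc14a2, was also lowest in db/m replicate 3 (4.02) and highest in db/db replicate 3 (5.21). The mean over 4 urothelial markers was 3.59 to 4.07 in db/m mice and 4.11 to 4.37 in db/db mice, and the mean over 4 thick limb markers 9.09 to 9.25 and 9.26 to 9.48. Some of these markers were dim. Sptssb of the thin limb, at 2.28 to 2.68, lay below the olfactory receptor 95th percentiles of 3.27 to 3.47. Upk3a of the urothelium, at 2.92 to 3.35, lay below or among them. Upk1b of the urothelium also lay below them in db/m replicates 1 and 3, at 3.15 and 3.17. It was 4.26 in db/m replicate 2 and 3.96 to 4.52 in db/db mice. The part of the share of medulla or urothelium in the differences of Aqp2, Aqp4 and the tonicity genes was not tested.

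**Figure D5:**
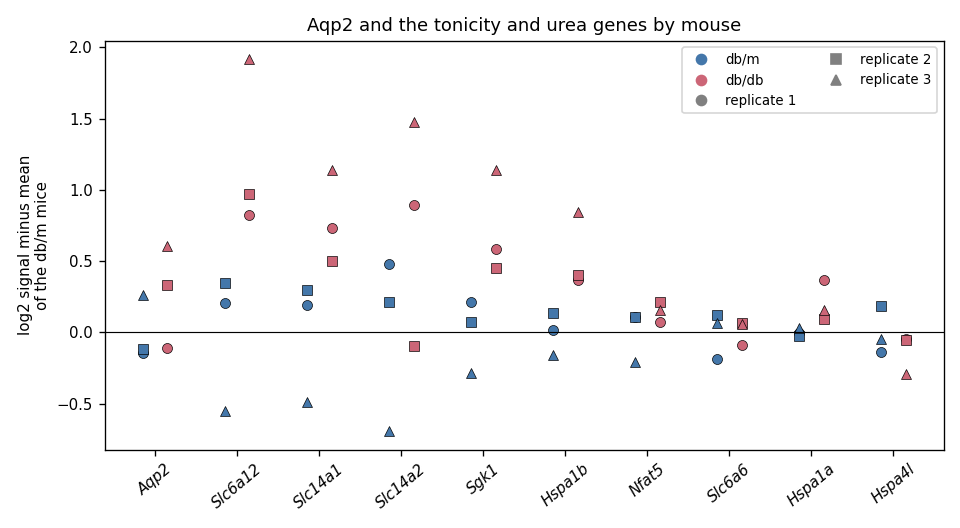
The log2 signal minus the mean of the db/m mice is plotted for Aqp2 and for the 9 measured genes of tonicity and urea transport, with 1 symbol per mouse (blue db/m, red db/db). In Slc6a12, Slc14a1, Sgk1, Hspa1b and Hspa1a every db/db mouse lies above the db/m mice, whereas the groups overlap in Aqp2.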

How the data were processed

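The authors extracted total RNA with TriZol and labelled 100 ng per array. The deposited values are log2 signals per probe set, made by RMA in Affymetrix Expression Console per the submitters' processing notes, with versions, filters and genome build not given in the sources used here. Gene names came from the annotation that matches the probe-set identifiers, whereas the methods name a different array. Each gene took the probe set of its own with the highest mean. Groups were compared with limma 3.58.1 in R 4.3.3 (lmFit and eBayes, no covariate), and p values were adjusted over 22180 genes. The methods name a one-way ANOVA per gene. With 2 groups it equals the equal-variance t-test, run here as an alternative and called the methods' t-test. Other alternatives were quantile normalization, median centring, a filter on dim probe sets, trended and robust variances and the mean of probe sets. The rest were the replicate number as a block, moderation over all probe sets, an adjusted p under 0.1 and each array left out. In 20 simulated draws of db/db against db/m over 22180 genes, limma recovered 26.6% of 1.5-fold, 85.4% of 2-fold and 99.7% of 4-fold changes. The members and lists were chosen with earlier results of these data known. Named genes were all members, their neighbours, genes of like profile and, of each list, called genes or up to 2 with the highest signal, and others are marked. RefSeq (GRCm38.p6) gave promoters, where 9 of 10 members matched. The names, order and overlaps of genes came from RefSeq gene coordinates whose build is not named in the sources used here.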

Additional observations from a re-analysis of the deposited data

How the results depend on the processing

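Of 139 values of single aquaporins under the alternatives, 135 kept their sign, and the 4 that changed were all of Aqp8. The count of aquaporins called higher was 0, and it was 1 (Aqp6) with trended and robust variances and 1 (Aqp6) at an adjusted p under 0.1. The count past the study's thresholds was 1, and it ran from 1 to 2 when each mouse was left out. It was 2 (Aqp4 and Aqp6) without db/m replicate 3, and the 1 gene left was Aqp4 in place of Aqp6 when db/db replicate 3 was omitted. The count called lower and the count of list genes called stayed at 0 in every alternative. With the replicate number as a block, 0 aquaporins were called higher and 0 lower, and 19 genes were higher and 42 lower over all genes, against 43 and 64 without it. Same-numbered mice did not deviate together over all genes (correlations of 0.042, -0.054 and -0.076), and only replicate 1 of each group correlated best with its own number. Such correlations cannot show whether a pairing or batch acts on some genes, and this was not tested. With the block the SE of Aqp2 was 0.13, against 0.19 without it (limma, adjusted p = 0.548 and 0.651). With the methods' t-test 0 aquaporins passed after adjustment and 1, Aqp6, at an unadjusted p under 0.05. Over all genes that test called 0 higher and 2 lower, limma over all probe sets called 0 and 9, an adjusted p under 0.1 gave 96 and 97, and leaving out each mouse gave 6 to 26 higher and 19 to 43 lower. With a filter on dim probe sets Aqp9 was left out. A 1.5-fold change was often missed in the simulation, so a miss does not show that levels were equal. Aqp9 is limited by its signal below the 95th percentile of the olfactory receptors.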

Other observations

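Markers of the distal convoluted tubule, a segment without an aquaporin of the list, were higher in db/db mice on average, although 0 of 3 were called. Slc12a3, the thiazide-sensitive sodium chloride cotransporter, had signals of 10.63, 10.89 and 10.93 in db/m mice and 11.01, 11.20 and 11.03 in db/db mice, with a log2 fold change of 0.27 (limma, SE 0.12, adjusted p = 0.470). Pvalb, a calcium-binding protein of this segment, had a log2 fold change of 0.35 (limma, SE 0.12, adjusted p = 0.313). The mean over the 3 markers was 7.88 to 8.02 in db/m mice and 8.12 to 8.41 in db/db mice. Of 5 genes best known from hepatocytes 0 were called, with 4 positive and 1 negative difference and a median log2 fold change of 0.15. Ttr, which carries thyroid hormone and retinol, was named after its values were seen. Its log2 fold change, the highest of the 5, was 0.84 (limma, SE 0.18, adjusted p = 0.107). Every db/db mouse lay above the db/m mice in Ttr, as in 9.17% of all genes.

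Profiles like those of Aqp2 and Aqp8, the aquaporin with the widest spread over the mice (SD 0.49), were sought among 13940 genes. Their mean signals lay above 3.37, the median over all probe sets, a cutoff that leaves some dim genes in. Likeness was the mean absolute difference over the 6 arrays between profiles, each taken minus its own mean. For Aqp2 the closest were Siah1a, a ubiquitin ligase (0.058), Wnt9a, a Wnt ligand (0.061), and Gata6, a GATA factor (0.061). Gata6 had signals of 3.98, 4.10 and 4.32 in db/m mice and 4.11, 4.35 and 4.73 in db/db mice, highest in replicate 3 of each group like Aqp2. For Aqp8 the closest were Zscan4c (0.12), Tubb6, a tubulin (0.14), and Pfn3, a profilin (0.14). With 6 arrays and this many genes, some close profiles arise in any search.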
